A study of Mus musculus with 6 samples.

Results

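Of the 6 retina libraries of this series, 3 held abundant lens transcripts, and they are set here against the remaining 3. The lens-high libraries were chosen by a measured level and were those with at least 50 FPKM (fragments scaled by gene length and library size) of Cryaa, the gene of the lens chaperone alpha-A crystallin. They were antagomir replicate 1, control replicate 2 and control replicate 3. The clean libraries were antagomir replicate 2, antagomir replicate 3 and control replicate 1. Cryaa stood at 82.9 FPKM in control replicate 3, the lens-high library nearest the limit, and at 1.37 FPKM in antagomir replicate 2, the clean library nearest the limit. Because Cryaa levels of these same libraries made the split, every difference between lens-high and clean libraries is a description and carries no test.

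The study used the mouse model of oxygen-induced retinopathy (OIR), in which high oxygen thins the immature vessels of the retina and abnormal vessels sprout once the pups breathe room air. All pups entered 75% ± 2% oxygen with their mothers on postnatal day 7. Intravitreal injection on day 12 delivered 1 nmol of miR-381-3p antagomir, an antisense inhibitor of that microRNA, or of 1 nmol of antagomir nc, the control. Retinal RNA was taken on day 17. The sources used here give no strain, sex or number of eyes per library. The lens-high class therefore held 1 antagomir and 2 control libraries, and the clean class 2 antagomir and 1 control library. The labels do not say that replicates were separate animals, so p-values between antagomir and control measure the spread between these samples.

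The vertebrate lens is a transparent tissue in front of the vitreous, built of an epithelial layer and of elongated fibre cells that lose their nuclei. Fibre cells fill with crystallins, the stable proteins that give the lens its refractive power. Alpha crystallins are small heat shock proteins that act as chaperones, while beta and gamma crystallins are structural proteins of another family. Some crystallin genes, Cryab above all, are also expressed outside the lens, in retina among other tissues.

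Between 13727596 and 15028877 reads were assigned to genes in the lens-high libraries, and between 15200313 and 16502352 in the clean ones, so every lens-high library was the shallower. Mitochondrially encoded genes took 1.60% to 1.66% of reads in lens-high libraries and 1.52% to 2.03% in clean libraries. Xist reached 10 FPKM in 2 lens-high libraries and 1 clean library. Rod genes dominated every library, with Gnat1, the rod transducin gene, between 2302 and 2348 FPKM in lens-high libraries and between 2250 and 2528 FPKM in clean libraries. The retinal label therefore held in all 6. In bulk tissue, more cells of a type and more RNA per cell cannot be told apart.

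Lens transcripts were a small part of each library and differed between the classes by more than an order of magnitude. The 16 crystallin genes took 15664 reads in antagomir replicate 1, 32365 in control replicate 2 and 12533 in control replicate 3. The clean libraries held 1013 in antagomir replicate 2, 608 in antagomir replicate 3 and 595 in control replicate 1. As a share of all reads this was 0.109% (95% Clopper-Pearson interval 0.107% to 0.111%), 0.215% (0.213% to 0.218%) and 0.0913% (0.0897% to 0.0929%) in the lens-high libraries. The clean shares were 0.00629% (0.00591% to 0.00669%), 0.00368% (0.0034% to 0.00399%) and 0.00391% (0.00361% to 0.00424%). The intervals cover counting error only. Without Cryab and Crygn, a gamma-N crystallin gene also expressed in retina, 14728, 30094 and 11746 crystallin reads were left in the lens-high libraries, in the order above, and 355, 107 and 155 in the clean ones. The clean libraries thus held few reads of these crystallins, and none of the libraries was at 0. In antagomir replicate 3, 70 of the 107 were of the beta crystallin gene Crybb3. Where the crystallin reads of the clean libraries came from was not tested.

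The 5 lens markers were high in the same 3 libraries. Crygb, the gamma-B crystallin gene, was at 154, 185 and 137 FPKM in the lens-high libraries (antagomir replicate 1, control replicate 2 and control replicate 3, an order kept from here on). It was at 3.39, 0.0956 and 1.38 FPKM in the clean libraries (antagomir replicate 2, antagomir replicate 3 and control replicate 1). Cryaa was at 99.0, 244 and 82.9 FPKM in lens-high libraries, against 1.37, 0.0474 and 0.342 FPKM in clean libraries. Crygs, the gene of gamma-S crystallin of the outer fibres, was at 38.9, 113 and 38.9 FPKM in lens-high libraries, against 0.843, 0 and 0.154 FPKM in clean ones. For each of these genes the lowest lens-high value lay above the highest clean value, and antagomir replicate 2 was the highest of the clean libraries. Bfsp1, which encodes filensin of the fibre cell's beaded filaments, was at 4.43, 7.98 and 4.42 FPKM in lens-high libraries, against 0.206, 0.304 and 0.225 FPKM in clean libraries. Lim2, a fibre membrane protein gene, was at 2.20, 1.96 and 1.89 FPKM in lens-high libraries, against 0.0562, 0 and 0 FPKM in clean libraries. Apart from Cryaa, which made the split, the other 4 markers were each higher in every lens-high library than in any clean one. Of these, Crygs, Bfsp1 and Lim2 passed the filter on mean level, given below, through the lens-high class alone. These genes had to differ by the mean, so their agreement is no support. Where the lens transcripts came from was not tested.

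All 16 crystallins passed the filter of a mean of at least 0.5 FPKM over the 6 libraries, 6 of them through the lens-high class alone, and all were higher in every lens-high library than in any clean library. Over all 16883 genes tested, which leave out chromosomes X and Y, 4.79% were higher without overlap. The crystallins vary with the gene that made the split, so nothing is read from that contrast. Differences are of mean log2(FPKM + 1), lens-high minus clean, a scale that understates the change of low genes. The median difference was 5.26 over the crystallins and -0.0015 over all genes tested. Within the antagomir libraries alone (1 lens-high against 2 clean) the crystallin median was 4.84, and within the control libraries alone (2 lens-high against 1 clean) it was 5.48.

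**Figure D1:**
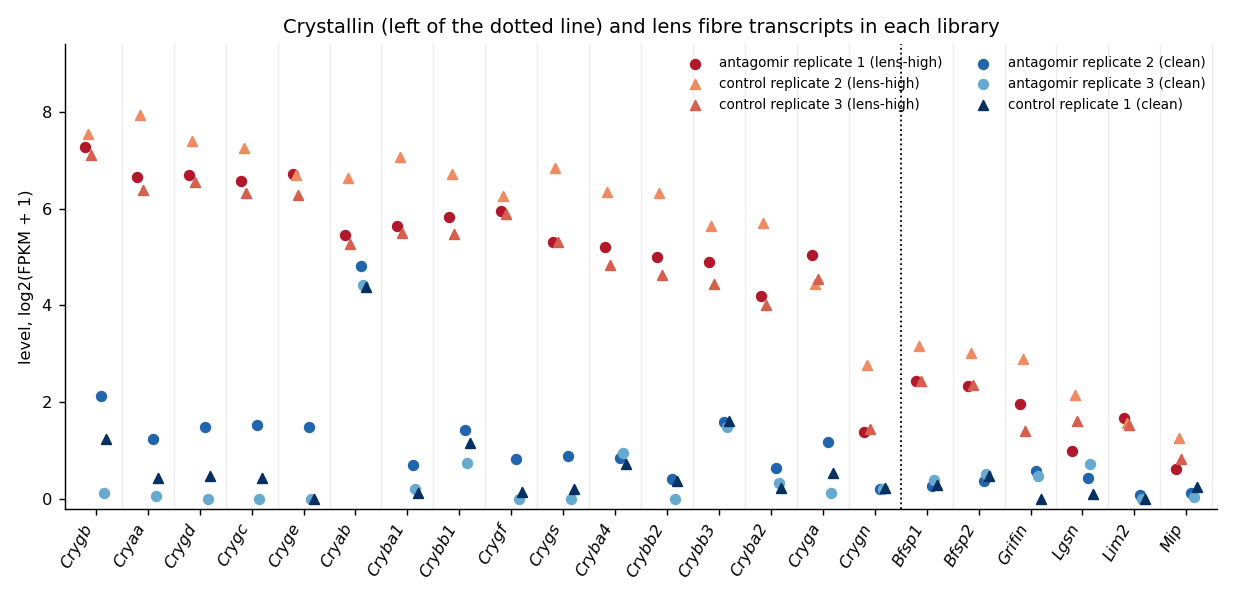
Level of each crystallin gene and of 6 lens fibre genes in each library, as log2(FPKM + 1). Reds are lens-high and blues clean libraries, with circles for antagomir and triangles for control. The 3 lens-high points stand above the 3 clean points for every gene drawn, and the nearest points of Cryab are 37.5 FPKM in the lowest lens-high and 27.3 FPKM in the highest clean library.

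Among alpha crystallins, Cryaa averaged 142 ± 88.8 FPKM in lens-high libraries and 0.587 ± 0.695 FPKM in clean libraries (SD, n = 3 each), a difference of 6.41. That was the largest of all genes tested on this scale, but Cryaa made the split and had to differ. Cryab, whose product alpha-B crystallin is also a stress protein of retinal glia, was at 42.6, 97.9 and 37.5 FPKM in lens-high libraries, against 27.3, 20.5 and 19.9 FPKM in clean libraries. Its difference of 1.24 was the smallest of the crystallins, and it was the crystallin with the highest level in the clean libraries.

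The gamma crystallins A to F, made in fibre cells and encoded in a cluster on chromosome 1 (Cryga to Cryge) and nearby (Crygf), held 5998, 8269 and 4883 reads in lens-high libraries and 133, 2 and 29 reads in clean libraries. Crygd was at 102, 167 and 93.1 FPKM in lens-high libraries, against 1.79, 0 and 0.392 FPKM in clean libraries. Cryge was at 104, 103 and 76.9 FPKM in lens-high libraries, against 1.78, 0 and 0 FPKM in clean ones. Antagomir replicate 3 thus held no read of Crygc, Crygd, Cryge or Crygf, while antagomir replicate 2 held between 8 and 30 of each. Crygc (difference 6.06), Crygf (5.70) and Cryga (4.06) had the same order of classes. Between 23.98% (Crygc) and 46.5% (Cryge) of the 50-base windows of these 6 transcripts also occur in another gene, chiefly in each other, so the split of reads among them is uncertain while their sum is less so.

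The close kinship of the gamma genes shows in their promoters as well as their transcripts, and the windows around the TATA-like letters are printed to let the likeness be seen. Each line gives 30 bases on the gene's own strand, 5′ to 3′, from RefSeq's GRCm38.p6 promoters, with TATATA in capitals. The last line, from the unlinked alpha-A gene, is for comparison.
Cryge, chr1:65051164-65051193, minus strand: cagacctcctgcTATATAgaccctgctccc
Crygd, chr1:65063453-65063482, minus strand: cagacctcctgcTATATAgaccctgctccc
Crygf, chr1:65926478-65926507, plus strand: cagacctcctgcTATATAgaccctgctccc
Crygc, chr1:65073544-65073573, minus strand: caaccctcctgcTATATAgaccagccactc
Crygb, chr1:65082303-65082332, minus strand: agtcatgacagcTATATAtaccaggggagc
Cryga, chr1:65103385-65103414, minus strand: gccatcctgctgTATATAtatcagctgcca
Cryaa, chr17:31677890-31677919, plus strand: tctgtgcaggcaTATATAgggagggctgga

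The windows of Cryge, Crygd and Crygf were identical over 30 of 30 bases. Crygc matched them at 23 of 30, Crygb at 14 and Cryga at 12. TATATA, which reads the same on both strands, lay in 8 of the 15 crystallin promoters in the table (250 bases before to 50 after the start) and in 5.44% of all 32544 promoters. All 6 gamma A to F promoters held it, as did Cryaa and Crygn. TATAAA, searched on both strands, lay in 4 of 15, those of Cryba1, Cryba2, Crybb1 and Crygs, and in 13.6% of all promoters. No crystallin promoter held both. TGCTGA, the core letters bound by Maf factors, lay on either strand in 10 of 15 and in 19.5% of all. Cryab had no entry. These matches are descriptions of the letters and not evidence of binding.

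Beta crystallins, the other large structural family, were likewise near absent from the clean libraries. Cryba1 was at 49.1, 132 and 43.9 FPKM in lens-high libraries, against 0.617, 0.152 and 0.0843 FPKM in clean libraries. Crybb1 was at 55.4, 103 and 43.6 FPKM in lens-high libraries, against 1.68, 0.677 and 1.23 FPKM in clean libraries. Control replicate 2 was the highest library for each beta crystallin, at 1.99 to 3.13 times the mean of the other lens-high libraries. Crybb2 (difference 5.05), Cryba4 (4.62) and Cryba2 (4.24) followed the same order of classes. Crybb3 differed by 3.43 and kept a steadier level in clean libraries than the rest, at 2.03, 1.82 and 2.05 FPKM, against 28.6, 49.2 and 20.8 FPKM in lens-high libraries. Crygn was low throughout, at 1.63, 5.83 and 1.71 FPKM in lens-high libraries and 0.153, 0.151 and 0.168 FPKM in clean ones.

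The lens-high libraries did not hold the same mixture of crystallins. Gamma A to F took 40.7% of crystallin reads (Cryab and Crygn left out) in antagomir replicate 1 and 41.6% in control replicate 3, but 27.5% in control replicate 2. Over the mean of the other lens-high libraries, control replicate 2 stood at 0.764 to 1.75 times for the 6 gamma A to F genes (median 1.27). For the 8 other crystallins without Cryab and Crygn it stood at 1.99 to 3.13 times (median 2.76), and the ranges do not meet. Antagomir replicate 1 over control replicate 3 gave 0.951 to 1.44 times over all 16 crystallins (median 1.17). The mixture was thus alike in these libraries and different in control replicate 2. The differing mixture rests on that 1 library and has no replicate. In clean libraries the gamma A to F share was 37.5% of 355 reads in antagomir replicate 2, 1.87% of 107 in antagomir replicate 3 and 18.7% of 155 in control replicate 1. Crybb3, nearly level across the clean libraries, gave 77, 70 and 71 of these reads in the same order. The clean shares therefore depend strongly on 1 gene and are not set against the lens-high shares. Gamma crystallins are made mainly in fibres formed early, and gamma-S and beta-B2 crystallins increase later, as background. Whether the mixture reflects a region or a stage of the lens was not tested.

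**Figure D2:**
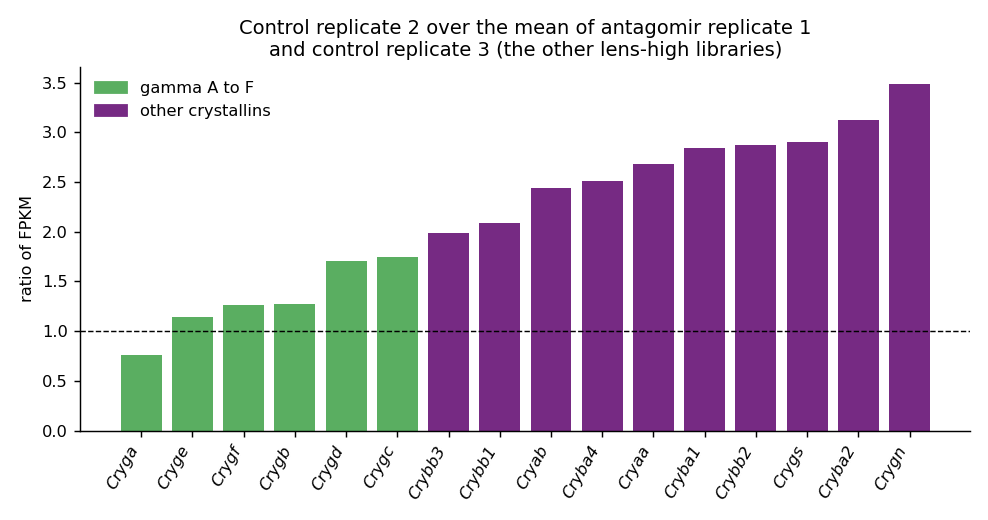
FPKM of each crystallin in control replicate 2 divided by the mean of antagomir replicate 1 and control replicate 3. Bars start at 0 and the dashed line marks equal levels. The 6 gamma A to F genes (green) lie between 0.764 and 1.75, and every other crystallin (purple) lies above them.

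Several genes of fibre cell structure were close to absent from the clean libraries. Of 19 listed, 10 passed the filter, and 6 of these (Bfsp1, Bfsp2, Grifin, Lgsn, Lim2 and Mip) passed through the lens-high class alone, so they had to differ and their count is no support. Bfsp2, which encodes the other beaded filament protein, was at 4.01, 7.05 and 4.09 FPKM in lens-high libraries, against 0.290, 0.428 and 0.396 FPKM in clean libraries. Grifin, a lens galectin-related protein gene, was at 2.92, 6.44 and 1.65 FPKM in lens-high libraries, against 0.501, 0.396 and 0 FPKM in clean libraries. Lgsn, which encodes lengsin, was at 0.994, 3.46 and 2.05 FPKM in lens-high libraries, against 0.349, 0.657 and 0.0694 FPKM in clean ones. Mip, the gene of the main fibre membrane channel aquaporin 0, had 17, 45 and 23 reads in lens-high libraries and 3, 1 and 6 in clean libraries. Mip transcripts were therefore few (0.901 ± 0.432 FPKM in lens-high libraries and 0.101 ± 0.0809 in clean libraries, SD, n = 3 each) beside the crystallins.

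The other fibre genes that passed the filter are also retinal transcripts or were low. Hsf4, a heat shock transcription factor gene of the lens, differed by 0.30, at 2.08, 1.99 and 1.86 FPKM in lens-high libraries and 1.19, 1.63 and 1.46 FPKM in clean ones. Tdrd7, whose product belongs to RNA granules of lens fibres, was lower without overlap, at 91.5, 87.7 and 92.8 FPKM in lens-high libraries and 94.8, 113 and 94.3 FPKM in clean libraries. Its difference was -0.14, and over all genes tested 4.90% were lower without overlap. Caprin2 and Tmod1 overlapped between the classes. The 9 fibre genes below the filter included Aqp5, Lctl, Slc7a11, Birc7, Tmem40, Gja3, Lenep and Dnase2b. Of these Lctl had 20, 38 and 30 reads in lens-high libraries and 0 in each clean library. The fibre connexin gene Gja3 had 18 reads over the lens-high class and 3 reads over the clean class.

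Genes of the lens epithelium and of lens transcription factors did not separate the classes. Of 16 listed, 11 passed the filter, 6 were higher and 5 lower by the mean, and 0 were without overlap in either direction, as 9.70% of all genes tested were. Their median difference was 0.03. Most are also expressed in retina, among them Pax6, a transcription factor gene of both tissues, at 24.2, 27.1 and 24.6 FPKM in lens-high libraries, against 22.2, 27.6 and 22.9 FPKM in clean libraries. Prox1, needed for fibre cell elongation in the lens and for horizontal cells in the retina, was at 23.4, 23.2 and 23.1 FPKM in lens-high libraries, against 23.0, 28.4 and 24.03 FPKM in clean libraries. Pitx3, Sox1, Cdh1 and Fgfr3 were below the filter. Foxe3, a transcription factor gene of lens epithelium, was listed at 0 in every library.

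Few genes outside the lens followed the split. With no overlap and a difference of at least 1, 46 genes were higher (0.272%) and 16 lower (0.0948%). A gene could pass the filter through 1 class alone and then had to differ, so neither count is support. Gm22231 (7 lens-high reads and 0 clean) was such a gene among the higher, and Gm27805 (0 and 5) among the lower. Of the 46 higher, 16 were crystallins, 5 were other lens genes and 25 were outside the lens lists. Of those 25, 19 were small RNA genes with 5 to 56 reads in all, 3 were pseudogenes and 3 were protein coding, and 22 had under 100 reads in all 6 libraries together. The pseudogene Gm10123 had the most reads of the 25 (7435) and a difference of 1.24. It was at 292, 194 and 223 FPKM in lens-high libraries, against 91.4, 141 and 73.0 FPKM in clean libraries. With no limit on the size of the difference, 809 genes were higher and 828 lower without overlap. After rescaling to TPM these became 1140 higher and 521 lower, so the split between directions depends on scaling.

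**Figure D3:**
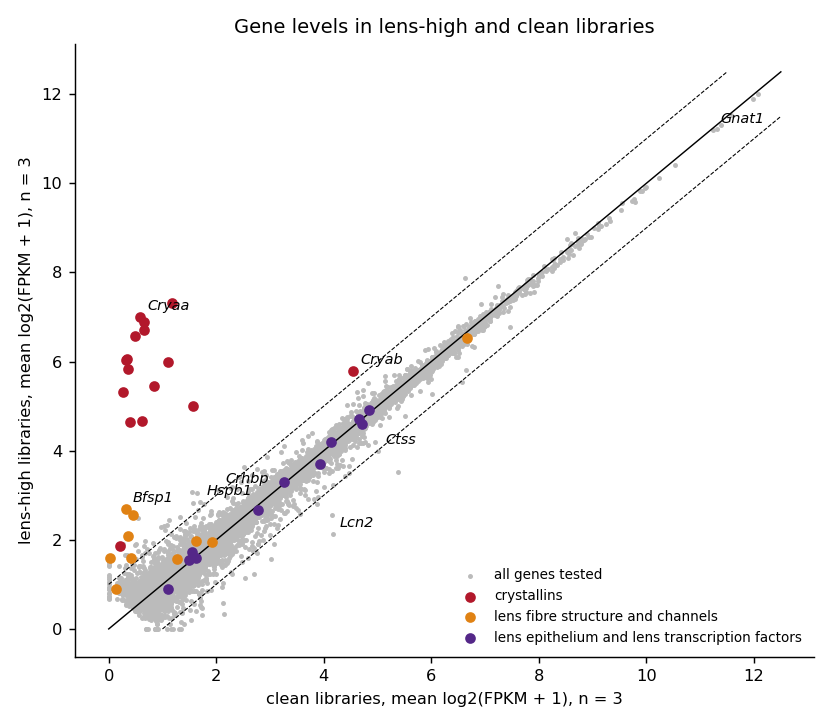
Mean log2(FPKM + 1) of every gene tested in lens-high (vertical) and clean libraries (horizontal), with the line of equal levels and dashed lines at a difference of 1. Crystallins (red) and several fibre genes (orange) lie far above the line, lens epithelium and transcription factor genes (purple) lie on it, and few other genes leave the dashed band.

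The protein-coding genes furthest above, outside the lens lists, were named by size of difference among those without overlap and with a mean of at least 1 FPKM. Hspb1, a small heat shock protein gene of the same family as the alpha crystallins, was at 4.34, 7.15 and 7.43 FPKM in lens-high libraries, against 2.44, 1.82 and 2.48 FPKM in clean libraries, a difference of 1.15. Its transcript shares 51.6% of its 50-base windows with a pseudogene. Crhbp, which encodes the corticotropin-releasing hormone binding protein, was at 5.004, 16.4 and 5.30 FPKM in lens-high libraries, against 1.84, 4.61 and 3.29 FPKM in clean libraries, a difference of 1.09. Gm11032 rests on 21 reads in the lens-high class and 6 in the clean class, and 50.9% of its windows occur elsewhere. Penk, the proenkephalin gene of some retinal amacrine cells, was at 10.1, 13.1 and 7.43 FPKM in lens-high libraries, against 5.11, 5.79 and 5.14 FPKM in clean libraries. Ptgds, which encodes a prostaglandin D2 synthase secreted by ocular epithelia, was at 49.2, 47.7 and 38.0 FPKM in lens-high libraries, against 27.9, 27.9 and 26.7 FPKM in clean libraries. Necab2, a neuronal calcium-binding protein gene, was at 19.7, 19.1 and 15.3 FPKM in lens-high libraries, against 9.997, 12.6 and 11 FPKM in clean libraries. The other named genes above were Fam107a, Slc6a13, Rgr, Slc13a4, Sptssb and Mfrp, with differences of 0.96, 0.85, 0.76, 0.70, 0.67 and 0.62. All 12 were higher by the mean both within antagomir and within control libraries. Their choice for values without overlap fixed this in advance, so it is no support.

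Named genes below belonged partly to immune and glial responses, and here the clean libraries spread more. Lcn2, an acute-phase iron-sequestering protein gene, was at 4.01, 2.81 and 3.39 FPKM in lens-high libraries, against 85.4, 12.2 and 4.10 FPKM in clean libraries, a difference of -2.04. Antagomir replicate 2 was the highest library and antagomir replicate 3 the next, while control replicate 1 was close to the lens-high libraries. Ctss, the microglial protease cathepsin S gene, was at 16.5, 13.0 and 15.6 FPKM in lens-high libraries, against 49.0, 30.8 and 20.2 FPKM in clean libraries (-1.02). The chemokine gene Ccl12 and the Fc receptor gene Fcgr4 had differences of -1.23 and -0.96 on 10 and 16 reads in the lens-high class. C4b, a complement gene whose transcript shares 35.2% of its windows with C4a, differed by -0.82, and it too was highest in antagomir replicate 2.

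For Hsd17b2 and Rps27a the clean libraries lay closer together. Hsd17b2, a 17-beta-hydroxysteroid dehydrogenase gene, was at 1.32, 1.20 and 1.503 FPKM in lens-high libraries, against 4.15, 3.53 and 4.09 FPKM in clean libraries. Its difference was -1.07 in all, -1.06 within antagomir and -1.12 within control libraries. Rps27a, which encodes a ubiquitin fused to a ribosomal protein and shares 40.6% of its windows with pseudogenes, was at 55.3, 37.7 and 44.5 FPKM in lens-high libraries, against 84.1, 90.3 and 109 FPKM in clean libraries. Crym, named for a crystallin of marsupial lens but a thyroid hormone binding protein in mouse, was at 28.8, 25.2 and 25.2 FPKM in lens-high libraries, against 66.7, 44.0 and 30.5 FPKM in clean libraries (-0.74). Tnfrsf12a, Fosb and Junb differed by -0.83, -0.87 and -0.81, and Gm17720, a 27-base gene, by -1.85 on 17 reads in the lens-high and 54 in the clean class.

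**Figure D4:**
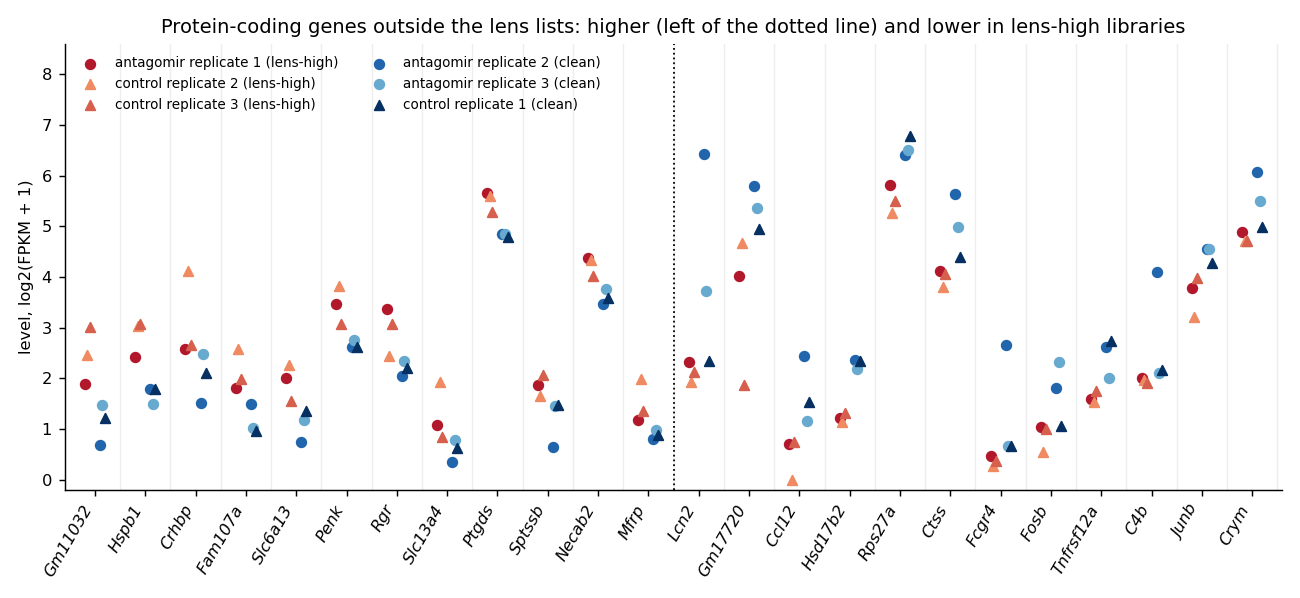
Level of the named protein-coding genes outside the lens lists in each library, as log2(FPKM + 1), higher genes left of the dotted line and lower genes right of it. Reds are lens-high and blues clean libraries. Antagomir replicate 2 stands highest for Lcn2, Fcgr4 and C4b.

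The size of each gene's excess was also set against that of the crystallins. For each gene the excess of each lens-high library over the clean mean was divided by that of the summed crystallins. If the highest of the 3 ratios was at most 1.5 times the lowest, the ratio was taken as kept. Among genes outside the lens lists with a difference of at least 1 this held for Gm25411, with 36 reads in the lens-high and 16 in the clean class, and Mir7078, with 8 and 2. The spread was 2.95 for Hspb1 and 4.23 for Crhbp. Lens genes themselves often exceeded the limit. The spread of the crystallins ran from 1.10 (Crygc) to 2.77 (Cryga), over 1.5 for 10 of 16. It was 1.18 for Bfsp1, 1.21 for Bfsp2, 1.80 for Mip, 2.03 for Lim2, 2.06 for Hsf4, 2.15 for Grifin and 3.16 for Lgsn. Exceeding the limit therefore does not set a gene apart from the lens genes.

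Markers of neighbouring eye tissues were mostly higher in the lens-high class, with control replicate 2 the highest for several. Ciliary body and iris markers had 9 of 15 tested, 8 higher by the mean (where 49.5% of all genes were), 2 higher without overlap and 1 lower (4.79% and 4.90% of all genes), and a median of 0.35. Their summed level was 71.0 to 100.4 FPKM in lens-high libraries and 53.1 to 67.02 FPKM in clean libraries. Ptgds alone, named above for its difference, gave 38.0 to 49.2 FPKM of this in lens-high libraries and 26.7 to 27.9 FPKM in clean libraries. The gap between the sums therefore rests largely on 1 gene. Optc, the ciliary epithelium gene opticin, was at 4.49, 17.7 and 4.44 FPKM in lens-high libraries, against 0.549, 4.64 and 2.45 FPKM in clean libraries, so it overlapped. Pigment epithelium and melanocyte markers had 10 of 13 tested, 10 higher by the mean, 2 without overlap (4.79% of all genes), a median of 0.60 and a summed level of 79.5 to 99.0 FPKM in lens-high libraries and 40.5 to 68.8 FPKM in clean libraries. Rgr, an opsin gene of pigment epithelium and Müller glia, was at 9.35, 4.40 and 7.39 FPKM in lens-high libraries, against 3.13, 4.07 and 3.62 FPKM in clean libraries. Pmel, a melanosome protein gene, was at 2.58, 13.6 and 2.87 FPKM in lens-high libraries, against 1.21, 4.31 and 3.23 FPKM in clean libraries. With 1 library left out, the ciliary body and iris median ran from 0.23 (without control replicate 2) to 0.51 (without control replicate 3). The pigment epithelium median ran from 0.37 (without control replicate 2) to 0.77 (without antagomir replicate 3). Msx1, Myoc, Otx1 and Lmx1b, among others, of the first list, and Tyr, Best1 and Slc45a2 of the second, were below the filter. The part of these tissues in the results above was not tested. Of 11 corneal markers 1 passed the filter.

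Lists of retinal neurons had medians between -0.08 and 0.27. Amacrine and ganglion cell markers were higher by the mean in 10 of 10 each (49.5% of all genes), with 3 without overlap in each (4.79% of all genes) and medians of 0.11 and 0.27. Thy1, a surface protein gene of ganglion cells, was at 45.4, 53.0 and 54.3 FPKM in lens-high libraries, against 35.6, 41.4 and 39.6 FPKM in clean libraries. Calb2, the calretinin gene of amacrine and ganglion cells, was at 161, 169 and 189 FPKM in lens-high libraries, against 135, 153 and 145 FPKM in clean libraries. With 1 library left out, the amacrine median ran from 0.03 (without control replicate 2) to 0.16, and the ganglion cell median from 0.18 (without control replicate 3) to 0.36. The ganglion cell median was 0.04 within antagomir libraries alone and 0.37 within control libraries alone. Rod markers were lower by the mean in 14 of 15 (median -0.07, 4 without overlap, where 4.90% of all genes were) and cone markers in 8 of 9 (median -0.07, 1 without overlap). Within antagomir libraries alone the rod median was 0.0040 and the cone median 0.08, and within control libraries -0.23 and -0.26. Bipolar (10 tested) and horizontal cell markers (5 tested) had medians of 0.01 and -0.08.

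Glial, microglial and immediate early genes were mostly lower in the lens-high class, by amounts that moved with single clean libraries. Over all genes tested, 8530 of 16883 were lower by the mean and 4.90% were lower without overlap. Astrocyte and reactive glia markers were lower by the mean in 9 of 10, 2 without overlap, with a median of -0.89. With antagomir replicate 2 left out it was -0.33, with antagomir replicate 3 left out it was -1.38, and each other library left out gave a value in between. Their summed level was 55.6 to 84.6 FPKM in lens-high libraries and 61.7 to 359 FPKM in clean libraries. Microglia and macrophage markers were lower in 11 of 12, 6 without overlap, with a median of -0.47, between -0.61 without control replicate 1 and -0.32 without antagomir replicate 2. C1qb, a complement subunit gene, was at 12.8, 9.07 and 13.2 FPKM in lens-high libraries, against 26.6, 19.1 and 14.7 FPKM in clean libraries. Their summed level was 69.3 to 84.8 FPKM in lens-high libraries and 89.5 to 161 FPKM in clean libraries. Immediate early genes, which respond within minutes to stimulation, were lower in 12 of 12, 4 without overlap, with a median of -0.51, between -0.70 without control replicate 1 and -0.24 without antagomir replicate 3. Within antagomir libraries alone their median was -0.62, and within control libraries -0.11. Jun was at 18.2, 16.2 and 16.9 FPKM in lens-high libraries, against 27.7, 26.6 and 18.8 FPKM in clean libraries. The clean class holds 2 of the 3 antagomir libraries, so lens transcripts and treatment are partly mixed in these differences.

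Vessel and blood markers did not separate the classes. Endothelial markers were 6 higher and 6 lower (median 0.01), with the highest Cldn5, Cdh5 and Tek in control replicate 2, and 1 of 12 higher without that library (median -0.19). Pericyte and smooth muscle markers had a median of 0.02 over 7. Müller glia markers had a median of 0.02 over 12. Red blood cell markers had a median of -0.31 over 4, turned to 0.41 without control replicate 1, which was high in haemoglobin transcripts. The mitochondrially encoded genes had a median of -0.08, turned to 0.05 with 13 of 13 higher without control replicate 1. Heat shock genes had a list median of -0.04 over 11, with differences from -0.28 to 1.15 (Hspb1). Of these, 1 was higher and 1 lower without overlap (4.79% and 4.90% of all genes). Muscle, myelin and the enzymes named crystallins had medians of -0.08, 0.13 and -0.07.

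**Figure D5:**
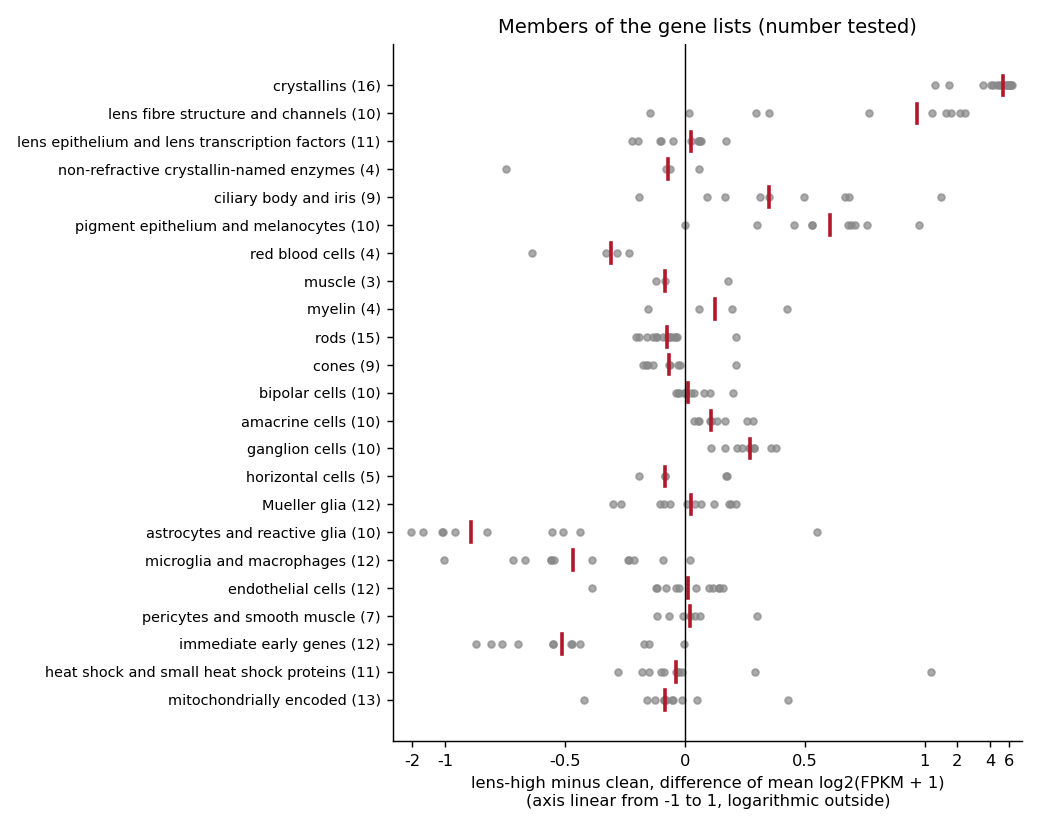
Difference of each tested list member (grey) and the list median (red), lens-high minus clean, on an axis that is logarithmic beyond 1. Medians are over the members that passed the filter. The crystallin median lies at 5.26, and those of the lists outside the lens lie between -0.89 and 0.60. Corneal markers, with 1 tested, are left out.

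A difference between treatment groups in lens transcripts was not detectable with these libraries. The crystallin share of reads was 0.0396% ± 0.0600 in antagomir libraries and 0.104% ± 0.106 in control libraries (SD, n = 3 each). The difference of mean log10 shares was -0.49, with p = 0.6 by an exact two-sided permutation test, which cannot go below 0.1 with 3 against 3. The lens-high libraries fall in both groups. The share ran from 0.00368% to 0.109% within antagomir libraries and from 0.00391% to 0.215% within control libraries.

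By limma, antagomir against control over the same genes, 0 of 16883 genes passed an adjusted p of 0.05 (0%), and 1056 (6.25%) had an unadjusted p under 0.05. Voom called 1. All 16 crystallins were lower by the mean in the antagomir group, with a median of -1.81, and 0 of 16 passed, with adjusted p between 0.856 and 0.931. Cryaa averaged 33.5 ± 56.8 FPKM in antagomir libraries and 109 ± 124 FPKM in control libraries (SD, n = 3 each), a log2 difference of -2.26 (SE 2.34, adjusted p = 0.899). The standard errors of the crystallins were 0.55 to 2.34, against a median of 0.106 over all genes. With lens class as a term the crystallin median was -0.12, and without the 3 lens-high libraries it was 0.21 over 10 crystallins. Lens class was made from Cryaa, itself a crystallin gene, so both fits take out crystallin variation by construction. These medians are therefore no test of treatment. The first fit called 0 genes, with 804 at an unadjusted p under 0.05. The second leaves antagomir replicates 2 and 3 against control replicate 1 alone, which is assumed to vary like the antagomir libraries, and called 0 genes, with 690 at an unadjusted p under 0.05. Hspb1 had 2.87 ± 1.31 FPKM in antagomir libraries and 5.69 ± 2.78 FPKM in control libraries, and did not pass (adjusted p = 0.808 by limma).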

How the data were processed

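The authors deposited FPKM values for 54532 genes with the length, position and biotype of each, per the file headers. The submitters' processing notes name the builds GRCm38 and mm10. The sources used here give no aligner, counter or strand setting, so overlapping, antisense and near-identical genes are uncertain. Library kits and RNA extraction were SMARTER mRNA-Seq and TRNzol, per the labels' protocols. Control columns carry the control's name. The other 3 columns carry an unexplained letter and were assigned to antagomir by elimination, which every direction between treatment groups depends on. FPKM times length was divided in each library by its smallest positive value, taken to stand for a single read. This turned 100% of values into whole reads (within 0.01 reads), and these rebuilt reads gave totals and shares.

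Genes with a mean of at least 0.5 FPKM (17453), without 570 on X or Y, were compared on log2(FPKM + 1). Antagomir and control were tested by limma (version 3.58.1, R 4.3.3; trend, two-sided, Benjamini-Hochberg adjustment over all genes tested), a test also tried on simulated data. Exact tests used scipy 1.17.1. Of 277 listed genes in 24 lists, 274 were found. Members, lists and the split were chosen with earlier results of these data known. Named were all crystallin and fibre genes, the 12 protein-coding genes per direction with the largest difference, without overlap and with a mean of at least 1 FPKM, the 2 highest members of each other list and genes keeping 1 ratio to the crystallins. Other genes named as examples were chosen after their values were seen. Some of the named genes are given in figures or counts, and some are not reported here. Windows of 50 bases were compared between transcripts of GENCODE, and promoters came from RefSeq. Alternatives were other pseudocounts, filters, scalings and fits, and each library left out.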

Additional observations from a re-analysis of the deposited data

Results flagged for a closer look

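For Guca1a, Opn1sw, Hspa8, Podxl and Cnp the lens-high minus clean difference had opposite signs within the treatment groups, with each library of a class on 1 side of the other class. The difference between the groups was not tested, and each rests on 1 library against 2. Guca1a, a photoreceptor guanylate cyclase activator gene, differed by 0.47 within antagomir and -0.26 within control libraries. The short-wave cone opsin gene Opn1sw differed by 0.16 within antagomir and -0.33 within control libraries. The chaperone gene Hspa8 differed by -0.10 within antagomir and 0.082 within control libraries. The endothelial gene Podxl differed by -0.26 within antagomir and 0.029 within control libraries. The myelin enzyme gene Cnp differed by -0.23 within antagomir and 0.052 within control libraries.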

How the results depend on the processing

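The counts of 46 higher and 16 lower genes in lens-high against clean libraries depend on the processing. They were 105 and 56 with a pseudocount of 0.1, 118 and 63 with 0.01, 97 and 35 after rescaling to TPM, and 102 and 60 with a difference of at least 0.58, which by construction admits more genes. With a minimum of 2 FPKM, which tests fewer genes, 28 were higher and 11 lower. Leaving out 1 library gave 59 to 79 higher and 25 to 60 lower. The causes of the other shifts were not tested. The 16 crystallins stayed higher without overlap in every setting that tested them (15 of 15 with a minimum of 2 FPKM). Only the rescalings could have broken that order, so the other settings are no check on it. A difference of at least 1 was kept by 15 of 16 without control replicate 2. Of 91 named genes no value without overlap changed sign, which again only the rescalings could have altered. With pseudocounts of 0.1 and 0.01 and with TPM, 33, 34 and 27 moved by over 1 SD. Between antagomir and control, limma called 5 genes without a trend, voom 1 and the fits without 1 library 0 to 2. Without antagomir replicate 1 these were Lyz2 and Mir7655 (2), and without control replicate 2 Fxyd6 (1), and the crystallin median ran from -3.72 to -0.64 over these fits. The replicate block called 0 genes (830 at an unadjusted p under 0.05). Same-numbered libraries did not vary together (correlations -0.245, -0.153 and -0.12), so the numbers pair nothing. The crystallin share differed by -0.20 with fibre genes, -0.51 as summed FPKM, -0.69 without Cryab and Crygn and -1.01 to -0.14 without 1 library, on the log10 scale. List values without single libraries were chosen after seeing the data. With 3 libraries a class and few reads on small RNA genes, their counts say little about single genes.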
